A study of Danio rerio with 20 samples.

Results

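Whole zebrafish larvae of the AB wild type that had been kept with a mixture of persistent organic pollutants at 70 times blood levels (POP70) were compared with larvae kept in the solvent alone (Control). The comparison rested on 8 of the 20 RNA-seq libraries of the series, the 4 labelled POP70 and the 4 labelled Control, taken by the treatment in their labels, and covered 19289 genes with enough reads to test. Persistent organic pollutants are halogenated chemicals that break down slowly and build up in people and animals. The mixture was modelled on average amounts in the blood of a Scandinavian population. Exposure ran from 6 to 96 hours post fertilization (hpf), and each library came from 10 pooled larvae taken at 96 hpf.

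The other groups serve here only to place POP70 values, again with 4 libraries each. POP10 larvae had the same mixture at 10 times blood levels. PFOS70 and PFOS10 larvae had perfluorooctanesulfonic acid (PFOS), 1 of the chemicals of the mixture, alone in the amounts it has in POP70 and in POP10. Control water held 0.1% dimethyl sulfoxide, and the labels do not state the solvent level of the exposed groups. All groups shared strain, age and tissue, and no transgene or mutation is named.

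At this age a zebrafish larva has a working retina, a swimming reflex, a beating heart and a liver. Transcription factors of the six3 type set up the forebrain and the eye in vertebrates and remain in use in retinal and forebrain cells. Halogenated pollutants of the dioxin type are known to bind the aryl hydrocarbon receptor, which switches on cyp1a, while perfluorinated acids are known ligands of lipid-sensing receptors in mammalian liver. Levels are given in log2 RPM, reads scaled to the size of the library, where a difference of 1 is a doubling. In a whole larva, fewer cells of a type and less RNA per cell cannot be told apart.

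POP70 libraries were shallower than Control libraries, with 8572287 to 9053322 reads against 10144607 to 10945748, and the part of depth in the results was not tested. Across genes, libraries correlated at 0.973 to 0.984 within POP70, at 0.981 to 0.986 within Control and at 0.971 to 0.987 between the groups. POP70 replicates 1 and 4 stood apart from the other 6 libraries. Replicate 1 lay at 48.27 on the first principal component of the 8 libraries (28.4% of the variance), where the other 7 spanned -24.83 to 16.32. Replicate 4 lay at 37.31 on the second (21.1%), where the rest spanned -23.14 to 20.08. Values without these libraries are therefore given with many of the gene groups below. Whether the pools had separate parents is not in the labels, so the tests measure the spread between these pools only.

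Of the 19289 genes, 3 passed a limma test at an adjusted p under 0.05, which is 0.0156% of those tested. One, lonrf1l, rose in POP70 (0.00518% of genes were called higher), and fam46ab and six3b fell (0.0104% were called lower). At an unadjusted limma p under 0.05 stood 1967 genes (10.2%), of which 770 (3.99%) were higher and 1197 (6.21%) lower. On average 964 in all would be expected with no effect. Genes move together in single libraries, so a count can lie far from that average. Without POP70 replicates 1 and 4 the counts were 325 higher and 462 lower. The excess over 964 is therefore no number of changed genes. The POP70 and Control values did not overlap in 1075 genes (5.57%), 394 of them higher (2.04%) and 681 lower (3.53%). The median log2 difference over all genes was 0.0009 and the median standard error 0.13. The adjusted threshold asked for a difference of many standard errors. For example, bhlhe22 did not pass at -0.47 ± 0.08 (limma adjusted p = 0.0547). At least 1 log2 separated the groups in 85 genes (0.441%).

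**Figure D1:**
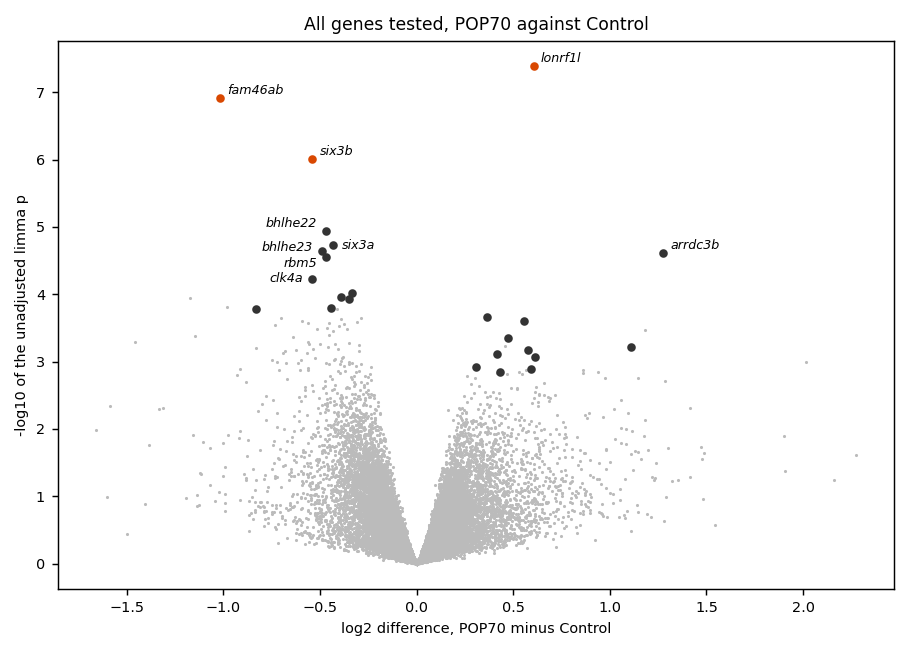
Each point is 1 of the 19289 genes tested, with the log2 difference of POP70 minus Control on the x axis and the negative log10 of the unadjusted limma p on the y axis. The 3 genes past the adjusted threshold are orange and labelled, the other 21 genes named by rank are dark, and most of the dark points stand at log2 differences between -0.6 and 0.6.

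lonrf1l encodes a protein of the LON-domain RING finger family, whose RING domain is typical of ubiquitin ligases. It lies on chromosome 8 at 13769514 to 13788311 of GRCz11. Its level in the 4 Control libraries was 6.33, 6.20, 6.25 and 6.45 log2 RPM. In POP70 it was 6.84, 6.96, 7.09 and 6.76. Every POP70 library was above every Control library, and replicate 4 was the lowest of the POP70 group. The log2 difference was 0.61 ± 0.07 (SE; limma adjusted p = 0.000776). In the order of the groups, POP70 was followed by POP10 at 6.64 ± 0.06 (SD, n = 4), Control at 6.31 ± 0.11, PFOS70 at 6.11 ± 0.03 and PFOS10 at 5.98 ± 0.06. POP10 libraries thus lay between those of POP70 and Control with no overlap on either side. The level of POP70 over PFOS70 was 0.80 ± 0.07 log2 (limma adjusted p = 6.79e-06), and POP70 over POP10 was 0.28 ± 0.07, which did not pass (adjusted p = 1). The table holds 1 other tested member of the family, lonrf1, on chromosome 14, and it was at 6.92 ± 0.22 in POP70 and 6.95 ± 0.05 in Control with a difference of -0.03 ± 0.09 (95% interval -0.22 to 0.15).

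fam46ab belongs to the FAM46 family, also called TENT5, whose mammalian members add adenosines to the tails of messenger RNAs. It lies on chromosome 23 at 40275601 to 40286059. Control libraries held 5.67, 5.90, 5.39 and 5.76 log2 RPM, and POP70 libraries 4.74, 4.65, 4.80 and 4.46. The highest POP70 library was well under the lowest Control library, Control replicate 3. The log2 difference was -1.02 ± 0.13 (limma adjusted p = 0.00116). POP10 stood in between at 5.30 ± 0.26, with 1 of its libraries above the lowest of Control, whereas PFOS70 at 5.75 ± 0.13 and PFOS10 at 5.99 ± 0.20 stood at or above Control. POP70 was lower than PFOS70 by a log2 difference of -1.09 ± 0.13 (limma adjusted p = 0.00043). Against POP10 the difference was -0.64 ± 0.13 without overlap, and it did not pass (adjusted p = 1). The 4 other FAM46 genes tested had differences of 0.10 ± 0.08 for fam46ba, 0.12 ± 0.12 for fam46bb, 0.22 ± 0.27 for fam46c and 0.05 ± 0.42 for fam46d, and in each of them the groups overlapped.

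six3b encodes a homeobox transcription factor of the forebrain and eye field, and lies on chromosome 12 at 25600685 to 25603341. Control libraries held 6.41, 6.42, 6.35 and 6.24 log2 RPM, and POP70 libraries 5.66, 5.86, 6.00 and 5.74. All POP70 libraries were below all Control libraries, by the least margin for POP70 replicate 3. The log2 difference was -0.54 ± 0.08 (limma adjusted p = 0.00629). Here the lower mixture and PFOS at the higher amount sat side by side, POP10 at 6.04 ± 0.05 and PFOS70 at 6.08 ± 0.07, each between POP70 and Control, while PFOS10 was highest at 6.76 ± 0.13. Neither POP70 against PFOS70 (-0.26 ± 0.08, adjusted p = 0.246) nor POP70 against POP10 (-0.23 ± 0.08, adjusted p = 1) passed.

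six3a, the duplicate of six3b on chromosome 13, had the same order of groups at the ends. Control libraries held 6.42, 6.58, 6.46 and 6.38 log2 RPM and POP70 libraries 6.01, 6.14, 6.07 and 5.89, so the groups did not overlap. With a difference of -0.43 ± 0.08 it missed the threshold (limma adjusted p = 0.0664). The other 11 genes of this homeobox family that were tested had differences from -0.15 ± 0.16 for six7, a photoreceptor gene, to 0.17 ± 0.66 for six9, and the groups overlapped in all 11. six6b, which like six3 acts in eye and hypothalamus, was at 5.95 ± 0.14 in POP70 and 5.98 ± 0.11 in Control (-0.03 ± 0.09).

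Whether the calls held depended on which libraries were fitted. When the spread was estimated from POP70 and Control alone, none of the 3 passed (limma adjusted p = 0.136 for lonrf1l, 0.0658 for fam46ab and 0.236 for six3b). Of all genes tested, that fit had 675 higher and 1030 lower at an unadjusted limma p under 0.05. With POP70 replicates 1 and 4 left out, lonrf1l passed (0.72 log2, adjusted p = 0.000509), and fam46ab (-0.96, 0.0788) and six3b (-0.42, 0.557) did not. In that fit 462 genes (2.40%) were lower and 325 (1.68%) higher at an unadjusted limma p under 0.05, the shares beside which list counts without both libraries stand. The call of six3b was also lost without Control replicate 1 (adjusted p = 0.0505) or replicate 2 (0.0525), and without Control replicate 4 the number of genes past the threshold was 9. The number of genes lower at an unadjusted limma p under 0.05 was 780 without Control replicate 3, and the number higher was 344 without POP70 replicate 1. List counts with 1 library left out stand beside the shares of all genes in that fit. Without POP70 replicates 1 to 4 in turn, 4.16%, 8.2%, 6.51% and 4.76% were lower and 1.78%, 5.02%, 5.98% and 4.34% higher. Without Control replicates 1 to 4 in turn, 6.07%, 5.85%, 4.04% and 4.89% were lower and 3.06%, 4.43%, 3.27% and 3.59% higher.

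**Figure D2:**
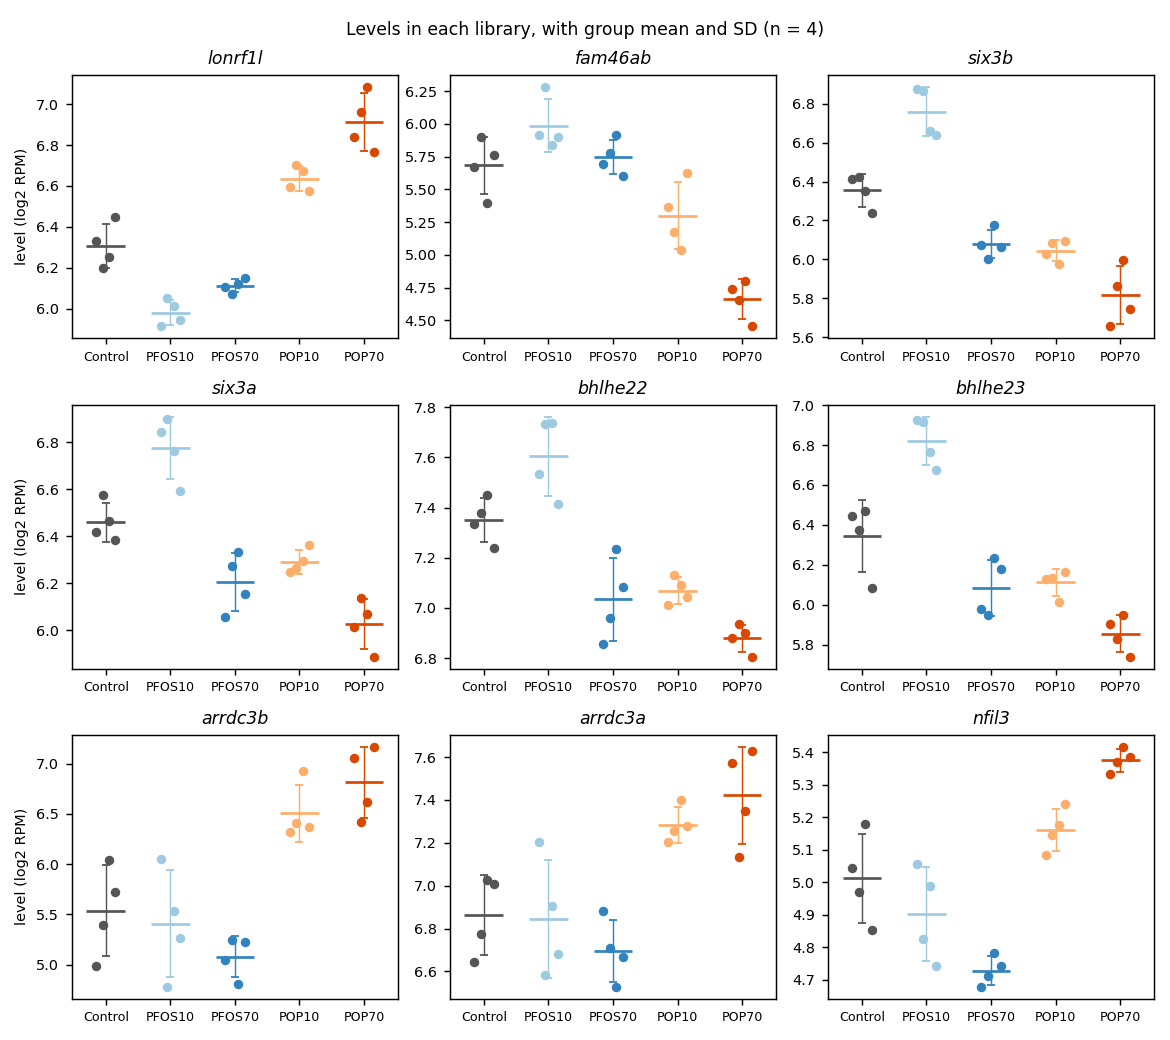
Points are the log2 RPM of single libraries in the 5 groups, with the group mean as a bar and the SD (n = 4) as a whisker, for 9 genes. The y axes differ between genes and do not start at 0. POP70 is the highest group for lonrf1l, arrdc3b, arrdc3a and nfil3 and the lowest for fam46ab, six3b, six3a, bhlhe22 and bhlhe23, with POP10 next to it in lonrf1l, fam46ab, arrdc3b, arrdc3a and nfil3. In six3b POP10 is also next to POP70, with PFOS70 close beside POP10.

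The next genes in rank are given as values, since they did not pass. In either direction the 12 with the smallest unadjusted limma p were taken, among genes with a proper symbol, a mean level of 3 log2 RPM or more and groups that did not overlap. On the higher side arrdc3b and arrdc3a, a pair of duplicates that encode arrestin-domain adaptor proteins, came close to the top. arrdc3b was at 4.99, 5.39, 6.04 and 5.72 log2 RPM in Control and at 7.05, 6.42, 6.62 and 7.16 in POP70. Replicates 1 and 4 were the highest of the POP70 libraries, and the difference was 1.28 ± 0.24 (limma adjusted p = 0.0664). For arrdc3a the Control libraries held 6.65, 6.78, 7.03 and 7.01 and the POP70 libraries 7.57, 7.14, 7.35 and 7.63, a difference of 0.56 ± 0.13 (adjusted p = 0.196). Both genes were higher in POP70 than in PFOS70 by that test, by 1.73 ± 0.24 (limma adjusted p = 0.0017) and 0.72 ± 0.13 (0.0153). The whole arrestin-domain and TXNIP list summed to 611 to 767 RPM in POP70 and 469 to 607 in Control. It has 7 tested members, of which 2 were higher at an unadjusted limma p under 0.05 (28.6%, against 3.99% of all genes). These 2 are arrdc3b and arrdc3a themselves, which also enter the sum, so the count and the sum are no separate result. At that level 4 were higher without Control replicate 4 and 1 was lower without Control replicate 1.

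nfil3 encodes a basic leucine zipper repressor of clock output. It stood at 5.05, 4.97, 5.18 and 4.85 log2 RPM in Control and at 5.33, 5.37, 5.42 and 5.38 in POP70, whose libraries were closely grouped and all above Control. The difference was 0.36 ± 0.08 (limma adjusted p = 0.196), and over PFOS70 it was 0.65 ± 0.08 (limma adjusted p = 0.000651). Its relative nfil3-6 was at 5.35 to 6.13 in POP70 and 4.03 to 5.17 in Control (1.14 ± 0.32, adjusted p = 0.3). ciarta, a repressor within the clock loop, was at 7.20 to 7.39 and 6.92 to 7.17 (0.24 ± 0.07, adjusted p = 0.352), and it was above PFOS70 by 0.41 ± 0.07 (limma adjusted p = 0.018). Of the 43 clock genes tested, 5 were higher and 6 lower at an unadjusted limma p under 0.05, with a median difference of -0.05. These are 11.6% and 14%, against 3.99% and 6.21% of all genes. The counts were 8 and 0 without POP70 replicates 1 and 4 (18.6% and 0%, against 1.68% and 2.40% of all genes). Single libraries moved the lower count too, to 3 without POP70 replicate 1, 10 without replicate 2, 1 without replicate 4 and 2 without Control replicate 2, and the higher count to 8 without POP70 replicate 1.

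Among the higher genes by rank, h1f0, histh1l and h1fx encode linker histones, which bind the DNA between nucleosomes, and none of them passed against Control. h1f0, the replacement form of quiet cells, was at 9.49, 9.40, 9.72 and 9.65 log2 RPM in Control and 9.81, 10.04, 10.01 and 10.07 in POP70 (0.42 ± 0.11, limma adjusted p = 0.252). histh1l was at 9.55 to 9.88 and 10.02 to 10.26 (0.43 ± 0.12), and h1fx at 6.53 to 6.87 and 7.02 to 7.57 (0.58 ± 0.14). Over PFOS70, h1f0 (0.52 ± 0.11, limma adjusted p = 0.0483) and histh1l (0.71 ± 0.12, adjusted p = 0.0128) passed and h1fx (0.56 ± 0.14, adjusted p = 0.163) did not. h1fx overlaps arpc4 on the same strand, so reads of these genes may have been shared. The remaining higher genes were slc16a6b of the monocarboxylate transporters (1.11 ± 0.27), p3h2, a collagen prolyl hydroxylase (0.61 ± 0.16), xirp1, an actin-binding gene of muscle (0.59 ± 0.16), ascc1 (0.47 ± 0.11) and sh3pxd2b, a scaffold of cell protrusions (0.31 ± 0.08), with limma adjusted p from 0.228 to 0.285.

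On the lower side bhlhe22 and bhlhe23 followed six3b. Both encode basic helix-loop-helix factors that in mouse specify retinal interneurons and brain neurons. bhlhe22 was at 7.33, 7.38, 7.45 and 7.24 log2 RPM in Control and at 6.88, 6.93, 6.90 and 6.81 in POP70, a gap wider than the range of either group (-0.47 ± 0.08, limma adjusted p = 0.0547). bhlhe23 was at 6.45, 6.38, 6.47 and 6.08 and at 5.90, 5.83, 5.95 and 5.74, with Control replicate 4 nearest to the POP70 values (-0.49 ± 0.09, adjusted p = 0.0664). Against PFOS70 the differences of bhlhe22 (-0.15 ± 0.08, adjusted p = 0.486) and bhlhe23 (-0.23 ± 0.09, adjusted p = 0.371) did not pass.

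Other lower genes by rank encode proteins that act on RNA. rbm5, a splicing regulator, was at 8.47, 8.57, 8.41 and 8.18 log2 RPM in Control and at 7.92, 7.96, 8.04 and 7.84 in POP70 (-0.47 ± 0.09, limma adjusted p = 0.0685). clk4a, a kinase of splicing factors, was at 8.72 to 9.02 and 8.10 to 8.46 (-0.54 ± 0.11, adjusted p = 0.126). safb, a nuclear scaffold gene, was at 8.61 to 8.92 and 8.43 to 8.49, and rbm15, which recruits the RNA methylation complex, at 5.81 to 6.01 and 5.33 to 5.58. The groups of these 4 genes did not overlap, as the rule that named them required. Against PFOS70, clk4a (-0.53 ± 0.11, limma adjusted p = 0.0483) and rbm15 (-0.56 ± 0.10, adjusted p = 0.0153) passed. The other lower genes were brdt, a bromodomain gene (-0.39 ± 0.08), rgs9a, which ends the light response of photoreceptors (-0.35 ± 0.07, and overlapped by cog1 on the other strand), and drd1b, a dopamine receptor gene (-0.83 ± 0.18), with limma adjusted p of 0.175 to 0.188.

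Against PFOS70, which held the same amount of PFOS without the rest of the mixture, 35 genes passed (0.181%), 19 higher in POP70 (0.0985%) and 16 lower (0.0829%), and 2133 had an unadjusted limma p under 0.05 (11.1%). The split moved with the scaling, to 38 higher and 11 lower after quantile normalization and 24 and 11 with medians made equal. Of the 24 genes named by rank against Control, 9 were among the 35. These were lonrf1l, fam46ab, nfil3, arrdc3b, arrdc3a, histh1l, h1f0, clk4a and rbm15. The 24 had been picked on the same POP70 libraries, so this count is a description. The number of genes past the threshold against PFOS70 was 4 without POP70 replicates 1 and 4, and it ran from 4 to 45 when single libraries were left out. It was 14 without POP70 replicate 1 or 3 and 9 without replicate 4, and 16, 11, 4 and 17 without PFOS70 replicates 1, 2, 3 and 4.

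Against POP10, no gene passed with limma (0%) or with voom on recovered reads. At an unadjusted limma p under 0.05 stood 580 (3.01%), fewer than the 964 expected on average with no effect. For the 24 genes named by rank, the differences of POP70 from POP10 ran from -0.64 ± 0.13 for fam46ab to 0.35 ± 0.16 for xirp1. The rank was set by the POP70 libraries that enter both comparisons, so this too is a description.

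**Figure D3:**
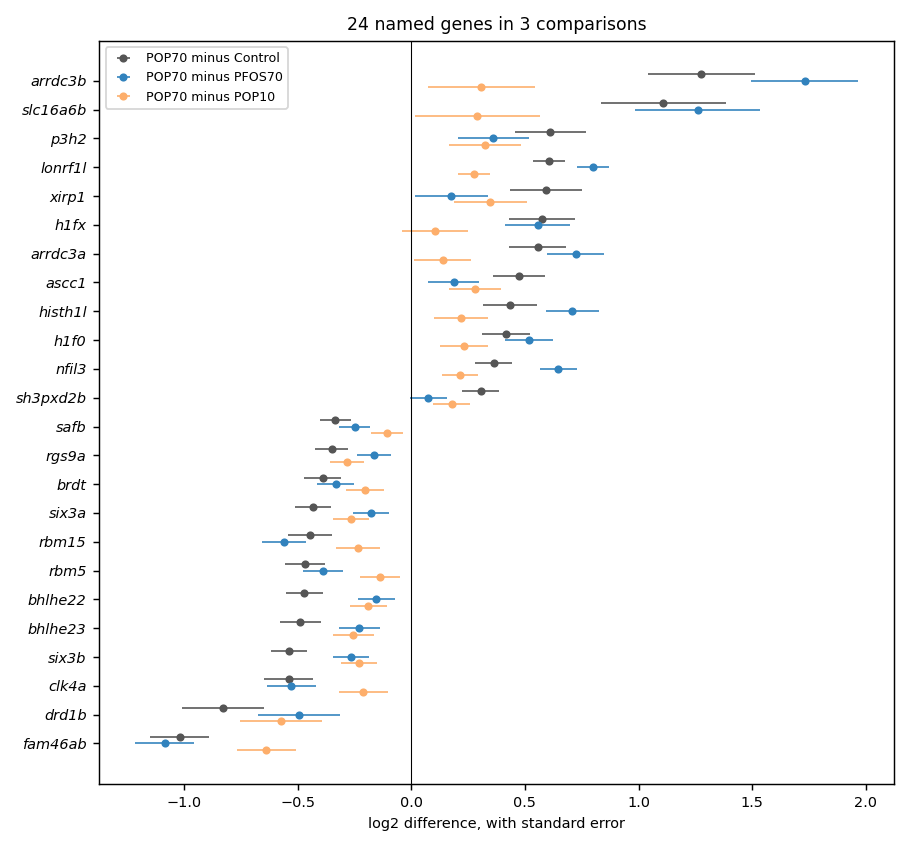
The x axis gives the log2 difference of POP70 from Control (grey), from PFOS70 (blue) and from POP10 (light orange), with the standard error of the limma fit as a bar, for the 24 genes named by rank against Control. arrdc3b reaches 1.73 and fam46ab -1.09 against PFOS70, and the points for POP10 lie nearest to 0 in most genes.

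Genes of the eye were next described as lists. Not all of the eye lists had lower medians. Visual cycle genes had 13 of 22 higher means and a median of 0.06, and lens crystallins 28 of 46 and 0.12. At an unadjusted limma p under 0.05, 2 and 1 of them were lower (9.09% and 2.17%, against 6.21% of all genes) and none higher. Both lower counts were 0 without POP70 replicates 1 and 4. The list of opsins and phototransduction genes, which turn light into an electrical signal, has 61 tested members. None passed, 52 had a lower mean in POP70, and 26 of the 61 had an unadjusted limma p under 0.05 with a lower mean, against 6.21% of all genes. Its median difference was -0.23, against 0.0009 over all genes. rho, the rod opsin, was at 12.83, 13.03, 12.90 and 12.85 log2 RPM in Control and at 11.85, 12.67, 12.77 and 12.41 in POP70 (-0.48 ± 0.19, limma adjusted p = 0.446). Its POP70 replicate 1 was far below the others. The ultraviolet, blue and green cone opsins opn1sw1 (-0.28 ± 0.12), opn1sw2 (-0.27 ± 0.09) and opn1mw1 (-0.26 ± 0.08) and the cone transducin gnat2 (-0.34 ± 0.10) had similar differences, and the red opsin opn1lw2 one of -0.17 ± 0.09. prph2b, a structural gene of outer segments, was at 8.51 to 8.79 in Control and 8.13 to 8.49 in POP70 (-0.37 ± 0.11), and grk7b, a cone opsin kinase, at 4.23 to 4.64 and 3.48 to 4.21 (-0.58 ± 0.17).

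The summed level of the 61 genes was 31392 to 37539 RPM in Control and 24078, 29973, 32092 and 27266 RPM in POP70 replicates 1 to 4, so replicate 3 lay within the Control range. The count was 6 lower (9.84%) without replicates 1 and 4, with a median of -0.10, where 2.40% of all genes were lower. With single libraries left out it was 17 without POP70 replicate 1 or 4, 14 without Control replicate 2 and 20 to 34 otherwise.

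Transcription factors of retinal neurons depended less on these libraries. Of 35 tested, 33 had a lower mean, and the median was -0.22. At an unadjusted limma p under 0.05 stood 13, all lower (37.1%, against 6.21% of all genes). The count was 11 (31.4%, against 2.40% of all genes) and the median -0.19 without POP70 replicates 1 and 4. Every POP70 sum (3030.7, 3072.8, 3186 and 3292.9 RPM) was below every Control sum (3345.5 to 3983.1 RPM). The same held for PFOS70, whose sums were 2976 to 3323.9 RPM, and the median difference of POP70 from PFOS70 in this list was -0.03. prdm13, a factor of amacrine cells, was at 5.78, 5.89, 5.77 and 5.45 log2 RPM in Control and 5.48, 5.27, 5.15 and 5.15 in POP70, with Control replicate 4 within the POP70 range (-0.46 ± 0.11, limma adjusted p = 0.197). neurod4, which acts in retinal neuron formation, was at 6.97 to 7.23 and 6.59 to 6.92 (-0.35 ± 0.09), and isl1, a factor of bipolar, amacrine and ganglion cells, had a mean of 7.37 ± 0.13 in Control and 7.07 ± 0.05 in POP70 (-0.30 ± 0.07), both without overlap. Over the list 7 of the 35 were apart and lower, against 3.53% of all genes.

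Factors that work with six3 in the forebrain and eye field formed a list of 35 tested genes, with 32 lower means and a median of -0.19. At an unadjusted limma p under 0.05, 11 were lower (31.4%, against 6.21% of all genes). rx3, which starts eye formation, was at 4.28 to 4.70 log2 RPM in Control and 3.24 to 4.13 in POP70 (-0.69 ± 0.18, limma adjusted p = 0.252). fezf2, of forebrain neurons, was at 5.63 to 5.99 and 4.89 to 5.51 (-0.56 ± 0.15), and lhx2b, of eye field and forebrain, at 5.95 to 6.13 and 5.69 to 5.75 (-0.32 ± 0.11). The list had 7 lower at that level without POP70 replicates 1 and 4 (20%, against 2.40% of all genes). It had 6 without POP70 replicate 2, 5 without Control replicate 1 or 3 and 7 without Control replicate 2. The list of neural helix-loop-helix factors had 5 of 25 lower (20%, against 6.21% of all genes) and a median of -0.08. It holds neurod4, given above, and bhlhe22 and bhlhe23, which were named by rank on these same libraries. The count is therefore in part no separate result. It was 4 without POP70 replicates 1 and 4 (16%, against 2.40% of all genes).

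Markers of the inner retina formed a list of 32 tested genes, 30 with lower means, and a median of -0.17. At an unadjusted limma p under 0.05, 10 were lower and 1 higher. These are 31.25% and 3.125%, against 6.21% and 3.99% of all genes. grm6b, a glutamate receptor gene of this list, was at 5.84, 6.03, 5.95 and 5.73 log2 RPM in Control and at 5.47, 5.55, 5.64 and 5.28 in POP70 (-0.40 ± 0.09, limma adjusted p = 0.197). The channel genes trpm1b (6.71 to 6.96 and 6.39 to 6.61) and trpm1a (5.37 to 5.78 and 4.61 to 5.34) had differences of -0.36 ± 0.08 and -0.46 ± 0.14. In these 3, picked for their small p, the groups did not overlap. Over the list 8 of the 32 were apart and lower and 1 apart and higher, against 3.53% and 2.04% of all genes. PFOS70 levels of trpm1b (6.47 ± 0.15) and trpm1a (5.07 ± 0.26) were close to the POP70 means (6.46 ± 0.10 and 5.06 ± 0.32), and grm6b differed between POP70 and PFOS70 by -0.02 ± 0.09. The number lower at an unadjusted limma p under 0.05 was 4 without POP70 replicates 1 and 4 (12.5%, against 2.40% of all genes). It was 17 without replicate 2 and 6 without replicate 4.

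**Figure D4:**
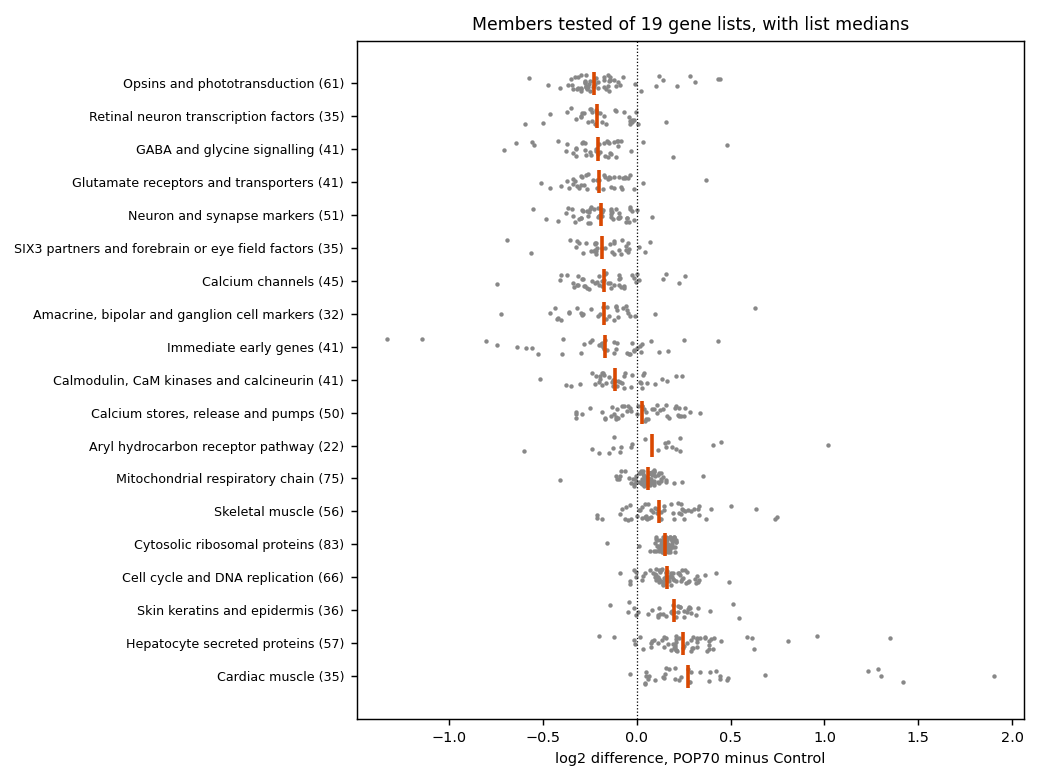
Points are the log2 differences (x axis) of single tested genes in 19 of the 50 lists, with the number tested in brackets, and orange bars are list medians. The dotted line marks the median of all genes tested, 0.0009. The 10 lists at the top have medians from -0.23 to -0.11, and the list of cardiac muscle genes at the bottom has one of 0.27.

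General markers of neurons and synapses, of the eye and elsewhere, had lower means too, and their counts moved with replicates 1 and 4. Of 51 neuron and synapse markers tested, 49 had lower means, with a median of -0.19. At an unadjusted limma p under 0.05, 14 were lower (27.45%, against 6.21% of all genes). Summed levels were 15255, 18876, 18680 and 17622 RPM in POP70 and 19155 to 21789 RPM in Control. Every POP70 library was thus below every Control library. POP10 libraries, at 17156 to 18396 RPM, were also all below Control, and PFOS70 libraries (16721 to 19819 RPM) overlapped it. The median difference of POP70 from POP10 in this list was -0.001. cplx4a, a complexin of retinal ribbon synapses, was at 7.52, 7.77, 7.53 and 7.67 log2 RPM in Control and 7.29, 7.27, 7.32 and 6.93 in POP70 (-0.42 ± 0.10, limma adjusted p = 0.242). vamp1, a vesicle fusion gene, was at 7.81 to 7.99 and 7.30 to 7.71 (-0.37 ± 0.10), and stxbp1b, which primes fusion, at 7.60 to 7.74 and 7.18 to 7.50 (-0.31 ± 0.09). The list had 1 lower gene at that level (1.96%, against 2.40% of all genes) and a median of -0.08 without POP70 replicates 1 and 4. It had 4 without replicate 1, 8 without replicate 4, and 6 and 8 without Control replicates 3 and 4.

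Receptors followed the same division. The list of GABA and glycine signalling, the inhibitory transmitters, had 15 of 41 tested genes lower at an unadjusted limma p under 0.05. That is 36.6%, against 6.21% of all genes, and the median was -0.21. Relative to the Control mean the summed level of the list was 73.1%, 99.3%, 93.0% and 76.5% in POP70 replicates 1 to 4. The low values were those of replicates 1 and 4. In POP10 the list summed to 3890 to 4360 RPM, below every Control library (4400 to 4897 RPM). PFOS70 libraries, at 3976 to 4860 RPM, overlapped Control. Without both, 2 genes were lower (4.88%, against 2.40% of all genes). The count was 4 without replicate 4 and 9 without Control replicate 3. gabra6a, a receptor subunit of cerebellum, was at 5.34 ± 0.10 log2 RPM in Control (SD, n = 4) and 4.96 ± 0.16 in POP70 (-0.38 ± 0.10), and gabrb2 at 6.23 to 6.47 and 5.73 to 6.18 (-0.38 ± 0.12). Glutamate receptors and transporters had 9 of 41 lower (21.95%, against 6.21% of all genes) and a median of -0.20. Their summed levels were 4056 to 5155 RPM in POP70 and 5209 to 5937 RPM in Control. POP10 sums of 4634.5 to 5073.9 RPM were also all below Control, and PFOS70 sums of 4362 to 5626 RPM overlapped it. grik1a, a kainate receptor, was at 4.25 to 4.61 and 3.82 to 4.15 (-0.37 ± 0.10), and grin2ab, an NMDA receptor subunit, at 6.17 to 6.41 and 5.17 to 6.17 (-0.51 ± 0.16). The glutamate list had 2 lower and 1 higher without replicates 1 and 4, 4 lower without replicate 4 and 16 without replicate 2.

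Calcium handling was followed by role. Of 45 voltage-gated calcium channel genes tested, 40 had lower means, 5 were lower and 1 higher at an unadjusted limma p under 0.05, and the median was -0.18. Lower and higher shares were 11.1% and 2.22%, against 6.21% and 3.99% of all genes. The higher one was cacng1a, the muscle channel subunit, at 5.45 to 5.53 log2 RPM in Control and 5.67 to 5.84 in POP70 (0.26 ± 0.09, limma adjusted p = 0.409). cacng8b, a subunit that binds glutamate receptors, was at 6.64 to 6.78 and 5.91 to 6.62 (-0.34 ± 0.12). Of 41 genes of calmodulin, its kinases and calcineurin, 6 were lower (14.6%, against 6.21% of all genes). Among them was camk2b1, a kinase subunit of neurons and muscle, at 8.72 to 8.75 and 8.40 to 8.59 (-0.22 ± 0.07). Calcium stores and pumps had 2 of 50 higher and 2 lower, shares near or under those of all genes (3.99% and 6.21%), and a median of 0.03. Those counts became 6 and 4 without POP70 replicate 3, 2 and 5 without replicate 2, and 0 and 1 without replicate 1 or without replicates 1 and 4. The list holds atp2b3a, a plasma membrane pump of neurons, at 8.31 to 8.55 and 7.82 to 8.36 (-0.33 ± 0.11). pvalb4, a calcium buffer of muscle, was at 9.23 to 9.49 and 9.38 to 9.68 (0.25 ± 0.10), and pvalb6 at 6.96 to 7.22 and 6.64 to 6.92 (-0.32 ± 0.11). At that level 0 channel genes were lower or higher without POP70 replicates 1 and 4, and 3 were lower without replicate 4 or Control replicate 3. The lower count of the calmodulin list was 0 without POP70 replicates 1 and 4, with a median of -0.02 (-0.11 in all libraries), and 3 without POP70 replicate 1 or 4 or Control replicate 3.

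Immediate early genes, which neurons and other cells switch on within minutes of a stimulus, had 41 tested members and a median of -0.17. At an unadjusted limma p under 0.05, 11 were lower (26.8%, against 6.21% of all genes) and none higher. npas4a, induced by neuronal activity, was at 5.56, 4.80, 4.80 and 5.17 log2 RPM in Control and 3.67, 4.13, 4.20 and 2.98 in POP70 (-1.33 ± 0.42, limma adjusted p = 0.383). egr4 was at 5.28, 4.85, 4.70 and 4.60 and at 3.66, 4.10, 3.81 and 3.28 (-1.15 ± 0.27, adjusted p = 0.221). fosab was at 4.78, 4.67, 4.40 and 4.55 and at 3.83, 3.80, 3.84 and 3.73 (-0.80 ± 0.25, adjusted p = 0.37). In these 3, picked by p or as defining genes, the groups did not overlap. Over the list 10 of the 41 were apart and lower, against 3.53% of all genes. npas4a had its lowest values in POP70 replicates 1 and 4 while fosab was even across the group. egr1 (-0.75 ± 0.23), dusp2, a phosphatase of the same response (-0.64 ± 0.15), and ier5l (-0.24 ± 0.06) were also without overlap. The sum of the list was 1687 to 1932 RPM in POP70 and 2007 to 2177 RPM in Control. At an unadjusted limma p under 0.05 the list had 6 lower and 1 higher without replicates 1 and 4. These are 14.6% and 2.44%, against 2.40% and 1.68% of all genes.

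Contractile genes mostly had higher means. Of 35 cardiac muscle genes tested, 34 had higher means in POP70, against 50.2% of all genes, 9 had an unadjusted limma p under 0.05, against 3.99% of all genes, and the median was 0.27. Summed levels were 6765 to 7038 RPM in POP70 and 6066 to 6636 RPM in Control. myh7l, a heart myosin gene, was at 2.25, 2.76, 3.06 and 2.77 log2 RPM in Control and 5.34, 4.10, 3.31 and 3.23 in POP70, with replicate 1 far above the rest (1.29 ± 0.36, limma adjusted p = 0.314). myh7 was at 6.84 to 7.03 and 7.08 to 7.62 (0.28 ± 0.10), and myh7ba at 4.04 to 4.39 and 4.40 to 5.19 (0.44 ± 0.16), both again highest in replicate 1. These myosins are near-identical neighbours in part, and how shared reads were counted is not given, so their single values are uncertain. The list had 4 higher genes (11.4%, against 1.68% of all genes) and a median of 0.21 without POP70 replicates 1 and 4. Without replicate 1 alone it had 2 higher genes (5.71%, against 1.78% of all genes).

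Of 56 skeletal muscle genes, 46 had higher means, against 50.2% of all genes, with a median of 0.12. At an unadjusted limma p under 0.05, 10 were higher (17.9%, against 3.99% of all genes). The summed level of the list did not separate the groups. It was 93.3%, 99.7%, 105.2% and 105.9% of the Control mean in POP70 replicates 1 to 4 and 95.0% to 107.2% in Control. desma, an intermediate filament gene of muscle, was at 8.29, 8.29, 8.39 and 8.38 log2 RPM in Control and 8.61, 8.85, 8.57 and 8.61 in POP70 (0.33 ± 0.09, limma adjusted p = 0.339), and tpm2, a tropomyosin, at 8.70 to 8.90 and 8.94 to 9.57 (0.33 ± 0.12). The count was 4 without POP70 replicates 1 and 4 (7.14%, against 1.68% of all genes). It was 2 without replicate 1, and 5 and 6 without Control replicates 3 and 4. In PFOS70, desma stood at 8.68 ± 0.11 and tpm2 at 9.24 ± 0.10, close to POP70, and the POP70 to PFOS70 differences were -0.02 ± 0.09 and -0.08 ± 0.12.

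Cytosolic ribosomal protein genes showed a small shift in 1 direction. Of 83 tested, 82 had higher means, against 50.2% of all genes, with a median of 0.15. At an unadjusted limma p under 0.05, 9 were higher (10.8%, against 3.99% of all genes). rpl5a was at 10.39 to 10.59 log2 RPM in Control and 10.86, 10.54, 10.62 and 10.77 in POP70 (0.20 ± 0.08, limma adjusted p = 0.424). The summed level was 122.4%, 101.6%, 102.9% and 115.7% of the Control mean in POP70 replicates 1 to 4. In POP10 the list summed to 146880 to 152340 RPM, above every Control library (124020 to 136570 RPM). PFOS70 libraries, at 124200 to 133850 RPM, overlapped Control. The median difference of POP70 from POP10 was -0.06. Without POP70 replicates 1 and 4 the median of POP70 against Control was 0.04, with no gene under that p. The count of 9 was 0 without POP70 replicate 1, 40 without replicate 2, 24 without replicate 3 and 1 without replicate 4. These are 0%, 48.2%, 28.9% and 1.2%, against 1.78%, 5.02%, 5.98% and 4.34% of all genes in the same fits. The count was 1 and 3 without Control replicates 3 and 4. Genes of the cell cycle and of DNA replication also had mostly higher means. Of 66, 60 had higher means, with a median of 0.16. By limma 7 were higher at an unadjusted p under 0.05 (10.6%, against 3.99% of all genes). ccne2, a cyclin of entry into S phase, was at 4.33 to 4.75 and 4.82 to 5.42 (0.49 ± 0.14, limma adjusted p = 0.34), and mcm5, of the replication helicase, at 6.60 to 6.97 and 6.91 to 7.21 (0.25 ± 0.08). Their sums in POP70 were 122.7%, 95.2%, 101.6% and 130.4% of the Control mean. The median was 0.00434 without replicates 1 and 4, with 1 higher and 3 lower. These are 1.52% and 4.55%, against 1.68% and 2.40% of all genes. The count of 7 was 23, 14 and 3 without POP70 replicates 2, 3 and 4 and 12 without Control replicate 2 or 3.

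Marker sums of red blood cells followed the same libraries. The 20 tested genes summed to 193.1%, 88.4%, 99.6% and 159.4% of the Control mean in POP70 replicates 1 to 4, and to 76.8% to 116.8% in Control. Their median difference was 0.20 in all libraries and -0.06 without POP70 replicates 1 and 4. Liver secreted proteins (57 tested) had 53 higher means, a median of 0.24 and none under an unadjusted limma p of 0.05, which became 14 higher and a median of 0.66 without Control replicate 4 and a median of 0.06 without POP70 replicate 1. Without POP70 replicates 1 and 4 the median of the liver list was 0.05, again with none under that p. The count was 1 without POP70 replicate 2 or Control replicate 2. The median was 0.07 without Control replicate 3, 0.13 without Control replicate 2 and 0.45 without POP70 replicate 3. The Control sums ran from 63.6% to 169.9% of their mean. The part of these cell types in the results was not tested.

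**Figure D5:**
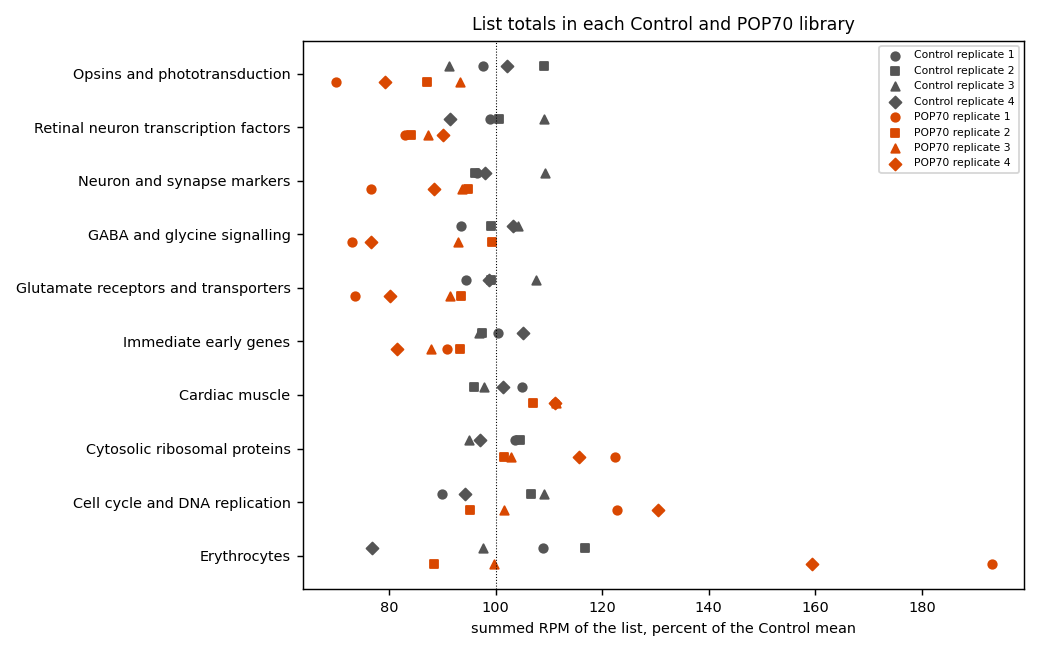
The x axis is the summed RPM of a list's tested genes in 1 library as a percent of the Control mean (dotted line at 100), for 10 lists. Grey symbols are Control and orange symbols POP70, with a shape for each replicate. POP70 replicates 1 (circles) and 4 (diamonds) lie at 73.1% and 76.5% for GABA and glycine signalling and at 193.1% and 159.4% for erythrocytes, where replicates 2 and 3 lie between 88.4% and 99.6%.

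Genes that pollutants of this kind are known to switch on were followed next, and none passed. cyp1a, the usual reporter of the aryl hydrocarbon receptor, was at 2.76, 3.28, 2.82 and 3.73 log2 RPM in Control and 3.86, 3.51, 2.76 and 2.90 in POP70, and the groups overlapped. The difference was 0.11 ± 0.29 with a 95% interval of -0.50 to 0.72, which leaves room for changes of that size. cyp1b1, of the same pathway, had a difference of -0.12 (interval -0.48 to 0.24), and cyp3a65, a drug-metabolizing cytochrome, one of 0.19 (interval -0.88 to 1.25). Of 22 genes of the receptor pathway 1 was lower at an unadjusted limma p under 0.05 (4.55%, against 6.21% of all genes). Of 43 genes of cytochrome families 2, 3 and 4 none was lower or higher at that level. Without POP70 replicate 4 the receptor list had 3 lower, without POP70 replicate 3 it had 3 higher, and without Control replicate 2 the cytochrome list had 2 higher. Of 52 genes of the Nrf2 and glutathione response to reactive chemicals, 45 had higher means, 6 were higher (11.5%, against 3.99% of all genes) and 2 lower, with a median of 0.15, and the numbers were 2 and 0 without POP70 replicates 1 and 4. The higher count was 2 without POP70 replicate 1, 11 without replicate 3, and 12 and 1 without Control replicates 2 and 3.

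Summed levels of glucocorticoid response genes ran from 85.5% to 127.4% of their mean in Control, and those of heat shock and unfolded protein genes from 97.8% to 102.4%. fkbp5, a chaperone gene induced by glucocorticoids, was at 7.26, 7.83, 7.46 and 8.82 log2 RPM in Control and 8.59, 8.81, 8.68 and 8.35 in POP70 (0.76 ± 0.26, limma adjusted p = 0.408), and Control replicate 4 was the highest of all 8. klf9, another target, had a difference of 0.38 ± 0.27, pck1, of glucose synthesis, one of 0.03 ± 0.46, and hsd11b2, which inactivates cortisol, one of 0.59 ± 0.20, each with overlap. Of the 54 glucocorticoid response genes tested, 6 were higher and 1 lower at an unadjusted limma p under 0.05, with a median of 0.05. These are 11.1% and 1.85%, against 3.99% and 6.21% of all genes. The higher count was 3 without Control replicate 1 and 8 without POP70 replicate 1 or Control replicate 4. It was 7 without POP70 replicates 1 and 4 (13%, against 1.68% of all genes). Heat shock and unfolded protein genes had 5 of 52 higher (9.62%, against 3.99% of all genes) and 3 lower (5.77%, against 6.21%). Without POP70 replicates 1 and 3 in turn, 2 and 8 were higher, with 5 lower in both cases. dnajb1b, a heat shock co-chaperone, was at 4.48 to 5.23 in Control and 3.93 to 4.25 in POP70 (-0.62 ± 0.16, limma adjusted p = 0.243), lower than PFOS70 by a difference of -0.84 ± 0.16 that passed (limma adjusted p = 0.0257). hsp90aa1.2 had a difference of -0.26 ± 0.07 and hspb1, a small heat shock gene, one of 0.43 ± 0.14.

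Lipid genes were followed as 2 lists, and none passed. Of 68 genes of fatty acid oxidation and PPAR targets, 4 were higher at an unadjusted limma p under 0.05 (5.88%, against 3.99% of all genes) and none lower, with a median of 0.07. The higher count was 9 without Control replicate 4, 1 without Control replicate 3 and 2 without POP70 replicate 1 or Control replicate 2. Of 50 genes of sterol, fatty acid and triglyceride synthesis, 4 were lower and none higher, with a median of 0.0005. That is 8% lower, near the 6.21% of all genes. fasn, fatty acid synthase, was at 7.50, 7.48, 7.49 and 7.62 log2 RPM in Control and 6.76, 7.38, 7.38 and 7.09 in POP70 (-0.37 ± 0.13, limma adjusted p = 0.409), again lowest in replicates 1 and 4. acaca, of the step before it, had a difference of -0.27 ± 0.10, and hmgcra, of sterol synthesis, one of -0.32 ± 0.12. The synthesis list had 1 lower and 2 higher without POP70 replicates 1 and 4, 1 lower without replicate 1 and 2 lower without POP70 or Control replicate 4.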

How the data were processed

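The authors deposited 1 table of log2 values for 48838 transcripts in 20 libraries. Per the labels, RNA of whole larvae was purified with poly-T beads and primed at random. GRCz11, STAR 2.5.4b, Trim Galore 0.4.5, R 3.5.0 and DESeq2 are named, without roles, in the submitters' processing notes. How the log2 values were made, the strand setting and the treatment of reads that match several places are not given in the sources used here. By their steps, the values are log2 RPM, and 0 reads are written as 0.9. Between 1 and 1000 reads, 100% of values were whole to within 0.05 reads, and 1 RPM stood for 8.57 to 11.2 reads. Columns summed to 3126704 to 3390337 RPM, above the total that RPM refers to, and the reason was not tested. Counting error is that of reads, not of molecules.

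The row name was used as the transcript, although it differed from the feature name in 3.4% of rows. For each of 22851 genes (9864 with 1 transcript) the row of highest mean over 20 libraries was kept. A gene was tested if 4 or more libraries reached 0 log2 RPM (19289 genes). limma 3.58.1 (R 4.3.3) fitted 1 model to all 20 libraries, with group alone as a term, 15 residual degrees of freedom and a mean-variance trend. Tests were two-sided and adjusted by Benjamini-Hochberg within each comparison at 0.05. No pseudocount was added, and the 0.9 reads that stand for 0 can understate or distort the change of low genes. 1 RPM was 8.57 to 9.05 reads in POP70 and 10.1 to 10.9 in Control. A value of 0 reads therefore lies at a higher log2 RPM in POP70 than in Control. The script was tested on simulated data.

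Named genes were those past the threshold, the 12 first in rank in either direction (genes past the threshold included) as stated in the text, up to 3 of smallest p or the defining genes of each list described, and paralogs of the genes past the threshold. The members and the 50 gene lists were chosen with earlier results of these data known. Lists were described by counts and medians, with no set test. Chromosome positions are those of the table. Alternatives were no filter, a filter at 5.5 log2 RPM, damping by 16 RPM, quantile normalization, equal medians, no variance trend, array weights, a replicate block, only the 2 groups, no PFOS10 libraries, voom on recovered reads, the lowest-numbered transcript, all transcripts and each library left out. A fit without POP70 replicates 1 and 4 was chosen after seeing the data. Transcript length, and so levels between genes, was not compared.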

Additional observations from a re-analysis of the deposited data

Results flagged for a closer look

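In 12 of 192 groups of 4 values tested, for the genes named and for depth, 1 library stood apart from the other 3 by Dixon's ratio. Chance flags about 1 in 20 groups, so a count of this size is close to what chance gives. No explanation was weighed for any of them.

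In POP70, 3 genes had replicate 1 apart and high. myh7 was at 7.62 log2 RPM against 7.08 to 7.12 in the other libraries, myh7ba at 5.19 against 4.40 to 4.51, and six1b, a gene of sensory and muscle precursors, at 6.21 against 6.08 to 6.10. Replicate 4 was apart and low in 3 genes, with rbm15 at 5.33 against 5.54 to 5.58, cplx4a at 6.93 against 7.27 to 7.32 and cyp1b1 at 2.32 against 2.70 to 2.75. Replicate 2 was high for desma, at 8.85 against 8.57 to 8.61.

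In Control, replicate 4 was low for brdt at 6.05 log2 RPM against 6.14 to 6.15 and high for fasn at 7.62 against 7.48 to 7.50. It also had the lowest depth of its group, 10144607 reads against 10917724 to 10945748. Replicate 2 was high for camk2b1 at 8.75 against 8.72 in the other 3 libraries, and replicate 1 low for ccne2 at 4.33 against 4.70 to 4.75.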

How the results depend on the processing

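The number of genes past the threshold in POP70 against Control, 3 of 19289, was 8 of 6623 with the stricter filter, 5 with medians made equal, 6 after quantile normalization, 5 transcript rows of 3 genes with all transcripts, 8 without the PFOS10 libraries, 0 with only the 2 groups and 1 without POP70 replicates 1 and 4. Leaving out 1 library gave 2 to 9. With the replicate number as a block it was 6. Same-numbered POP70 and Control libraries correlated in their deviations from the group means at -0.186, 0.0312, 0.083 and -0.155. For POP70 and PFOS70 the values were 0.192, 0.212, 0.0145 and 0.251, and for POP70 and POP10 0.235, 0.0114, -0.186 and 0.156. Whether the replicate number marks a batch was not tested. All 3 genes passed under the block. Against POP10 the number was 0 under every alternative run. Against PFOS70 (35) it was 12 with only the 2 groups, 18 with voom, 4 without POP70 replicates 1 and 4, 4 to 45 with 1 library left out, 25 under the replicate block, and 49, of which 38 were higher, after quantile normalization. Of 22 alternatives, lonrf1l passed in 21, fam46ab in 20 and six3b in 18. bhlhe22 passed in 7, six3a in 5, arrdc3b in 4, rbm5 in 3 and bhlhe23 in 2. Of 2062 values for the 95 genes named, 2013 kept their direction and side of the threshold. In 18 the direction changed, all for genes that had not passed. In 7 a gene past the threshold no longer passed, and in 24 a gene passed that had not. The 3 genes past the threshold kept their direction in every alternative. Of 1100 list medians 66 changed sign or moved by at least the SD of the list mean over the POP70 libraries. The cause of these shifts was not tested. With 4 pools a group and a median standard error of 0.13 log2, differences of several standard errors could go uncalled. That of bhlhe22 (-0.47 ± 0.08, limma adjusted p = 0.0547) did.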

Other observations

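Genes of the inner ear and of the hypothalamus had values that the comparisons above do not cover, and none passed. Of 24 tested genes of otolith and inner ear, 5 were higher and 2 lower at an unadjusted limma p under 0.05, with a median of 0.30. These are 20.8% and 8.33%, against 3.99% and 6.21% of all genes. otogl, a gene of the acellular membranes of the ear, was at 1.41, 1.30, 0.55 and 1.05 log2 RPM in Control and at 2.11, 1.78, 1.85 and 2.00 in POP70, without overlap (0.86 ± 0.23 SE, limma adjusted p = 0.285). stm, which shapes otoliths, was at 6.58 to 6.95 and 6.83 to 7.94 (0.61 ± 0.18). pcdh15a, a tip-link gene of hair cells, was at 4.36 to 4.57 and 3.58 to 4.19 (-0.45 ± 0.14). With POP70 replicates 1 and 4 left out, 2 genes of the list were higher and 0 lower, and with single libraries left out 2 and 8 were higher without POP70 replicates 1 and 4 in turn.

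Of 32 hypothalamic peptide and regulator genes, 3 were lower (9.38%, against 6.21% of all genes) and 1 higher (3.12%, against 3.99%) at an unadjusted limma p under 0.05. The lower count was 1 without POP70 replicate 1, Control replicate 1 or Control replicate 4, and 1 with 0 higher without POP70 replicates 1 and 4. oxt, the oxytocin-type peptide gene, was at 3.69, 3.25, 3.80 and 3.15 log2 RPM in Control and 2.26, 3.11, 3.60 and 2.56 in POP70, with overlap (-0.59 ± 0.24). gnrh2, a midbrain releasing-hormone gene, was at 1.07 to 1.61 and 0.22 to 0.83 (-0.64 ± 0.26), a level of few reads. spp1, of bone matrix, was at -0.76 to 0.72 and 0.73 to 1.26 (0.97 ± 0.32, limma adjusted p = 0.392), also a low level.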
